A study of Homo sapiens with 8 samples.

Results

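The mechanistic target of rapamycin kinase and 9 genes around it were followed in NB4, an established line from human acute promyelocytic leukaemia. Its PML-RARA fusion makes it responsive to all-trans retinoic acid (ATRA), which drives it to mature like a granulocyte. The 10 genes were taken by name: the kinase MTOR, the scaffold RPTOR, the shared subunit MLST8, the inhibitors AKT1S1 and DEPTOR, the alternative scaffold RICTOR, the TSC1 and TSC2 suppressors, the GTPase RHEB and the stress inhibitor DDIT4. They are 10 of 22627 gene symbols in the tables. Levels are in FPKM, fragments per kilobase of model scaled to the mapped fragments of a group. 9 members had a group mean no lower than 1 FPKM and entered the comparisons among 11052 genes. DEPTOR did not, and it is described by its values.

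All cells were NB4 cells infected with lentivirus, carrying either a hairpin against TFEB (shTFEB) or a scrambled hairpin (shScr), and all were kept for 72 h in ethanol vehicle or in 1 µM ATRA. Hairpin and treatment together make 4 groups, each with 2 samples in the labels, 8 in all. The deposited tables give 1 FPKM per transcript model and group, with no value per sample. The spread between samples is thus unknown and nothing was tested: every difference is a ratio of group values that no replicate backs.

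mTORC1 is a kinase complex on the lysosome surface that promotes protein synthesis and cell growth when amino acids and growth factors are present, and that phosphorylates TFEB and so keeps it in the cytoplasm. Growth factors act through the TSC complex, a GTPase-activating complex that switches off RHEB, the small GTPase that activates the kinase. DDIT4, also called REDD1, is induced by hypoxia, glucocorticoids and other stresses and acts through TSC, and RICTOR builds the second complex, mTORC2, which phosphorylates AKT.

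The targeted gene was read first. TFEB (chromosome 6, 41651716 to 41703997) was at 1.20 FPKM in shScr vehicle and 1.35 in the group labelled shTFEB vehicle, against 19.4 and 8.44 in the corresponding ATRA groups. Its mRNA was thus 2.30-fold lower in shTFEB cells under ATRA. It was not lower under vehicle, so TFEB mRNA does not bear out the label of that vehicle group. Both vehicle values were low, and their summed deposited bounds overlapped (0.928 to 1.52 FPKM for shScr and 1.11 to 1.63 for shTFEB). Below, shTFEB names the cells so labelled. Relative to shScr vehicle, depth was 1.05 for shScr under ATRA, and for shTFEB 1.17 under vehicle and 0.911 under ATRA. As a check on the cells, MPO was the highest promyelocyte marker in every group, from 594 to 3871 FPKM, while ELANE and KIT were at or near 0 (at most 0.0456 and 0.0114 FPKM). 8 granulocyte maturation genes summed to 108 FPKM under vehicle and 2861 under ATRA for shScr, and to 106 and 1868 for shTFEB. The 10 promyelocyte and progenitor genes summed to 4526 and 1023 for shScr, and to 3023 and 915 for shTFEB. MPO made up most of these sums, and not all of the 10 were lower under ATRA: SPI1 went from 43.9 to 168 FPKM for shScr and from 48.7 to 159 for shTFEB, and CD33 from 23.4 to 29.3 for shScr. 7 lymphoid genes summed to 1.28 to 12.8 FPKM, 7 erythroid and megakaryocytic genes to 0.177 to 2.80 (HBB, HBA1, HBA2 and PF4 at 0 throughout) and 8 non-blood genes to 29.8 to 36.3 FPKM, with KRT18 the highest in each group. The part of maturation in the ratios below was not tested, and in bulk RNA fewer cells of a type cannot be told apart from less RNA per cell.

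Promoter windows were read for the members with an entry in RefSeq's promoter table (GRCh38.p14, whereas the expression tables use hg19), each window being the 250 bases before the gene's start. That gave 8 windows of 7 genes. 4 motifs were searched on both strands: CACGTG, the E-box core that TFEB and related factors bind; the longer CLEAR element of lysosomal genes, which contains it; AGGTCA, the core site of retinoid receptors; and GGGCGG, the GC box. CACGTG was found in 1 of the 8 windows, that of TSC2, 114 bases before the start, and 6.34% of 35116 windows of all genes hold it. Only exact matches over the whole length of a motif were counted. The CLEAR element (0.308% of all windows) and AGGTCA (12.1%) had no exact match in these 8 windows. The CACGTG of TSC2, read with the bases beside it, differs from the CLEAR element searched in the last base only. It is thus a near match that the search did not count, and near matches in other windows were not counted either. Shown are the windows of TSC2, for its CACGTG (in capitals), and of RICTOR and DDIT4 as the members with an entry whose levels ranged most widely. They lie at chr16:2047735-2047984 on the plus strand, chr5:39074400-39074649 on the minus strand and chr10:72273674-72273923 on the plus strand, written 5′ to 3′ along the gene.
TSC2: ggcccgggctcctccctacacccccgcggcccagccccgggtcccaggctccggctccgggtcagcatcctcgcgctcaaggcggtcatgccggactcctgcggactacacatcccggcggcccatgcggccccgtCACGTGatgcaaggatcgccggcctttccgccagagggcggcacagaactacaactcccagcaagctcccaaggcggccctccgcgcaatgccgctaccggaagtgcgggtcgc
RICTOR: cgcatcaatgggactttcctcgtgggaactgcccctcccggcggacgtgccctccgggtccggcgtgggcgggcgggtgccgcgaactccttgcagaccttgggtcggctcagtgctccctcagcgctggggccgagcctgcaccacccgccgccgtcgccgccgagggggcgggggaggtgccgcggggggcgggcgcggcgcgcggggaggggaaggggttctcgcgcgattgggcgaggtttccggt
DDIT4: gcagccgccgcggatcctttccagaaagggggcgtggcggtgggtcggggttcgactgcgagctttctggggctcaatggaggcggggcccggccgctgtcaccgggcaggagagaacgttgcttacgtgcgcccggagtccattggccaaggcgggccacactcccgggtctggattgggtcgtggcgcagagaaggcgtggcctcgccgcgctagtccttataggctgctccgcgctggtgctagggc
GGGCGG occurred in 6 of the 8 windows, and 42.6% of all windows hold it. The RICTOR window is 76.0% G and C and has 4 matches to it, as does that of RHEB, while the DDIT4 window is 68.8% G and C and has none of the 4 motifs.

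Rose and fell are used below for ratios of at least 2-fold with 1 FPKM added to both values (log2 ratio of 1 in size), which is a mark and no test. With ATRA in shScr cells 0 of the 9 members rose and 1 fell, where 12.5% of all compared genes rose and 15.2% fell. In shTFEB cells 0 of 9 rose and 1 fell, beside 11.5% and 10.5% of all genes. MLST8 was the member that fell in both lines. The median log2 ratio of the members was −0.18 in shScr and −0.34 in shTFEB cells, beside −0.15 and −0.13 over all genes. At a lower mark of 1.5-fold, 2 members were lower in shScr cells (28.9% of all genes lower) and none higher (19.7%). In shTFEB cells 2 were lower (24.4%) and 1 was higher (18.3%). The deposited lower and upper bounds did not overlap for 2 higher and 5 lower members in shScr cells (33.2% and 47.9% of all genes). In shTFEB cells this held for 1 higher and 6 lower members (31.8% and 46.1%). 11 of the 40 member values, all of DDIT4, RHEB or MLST8, exceed their own deposited upper bound, so bounds are used only as a description. With so many genes past each mark, these counts single out nothing about the members, and the results lie in the genes one by one.

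**Figure D1:**
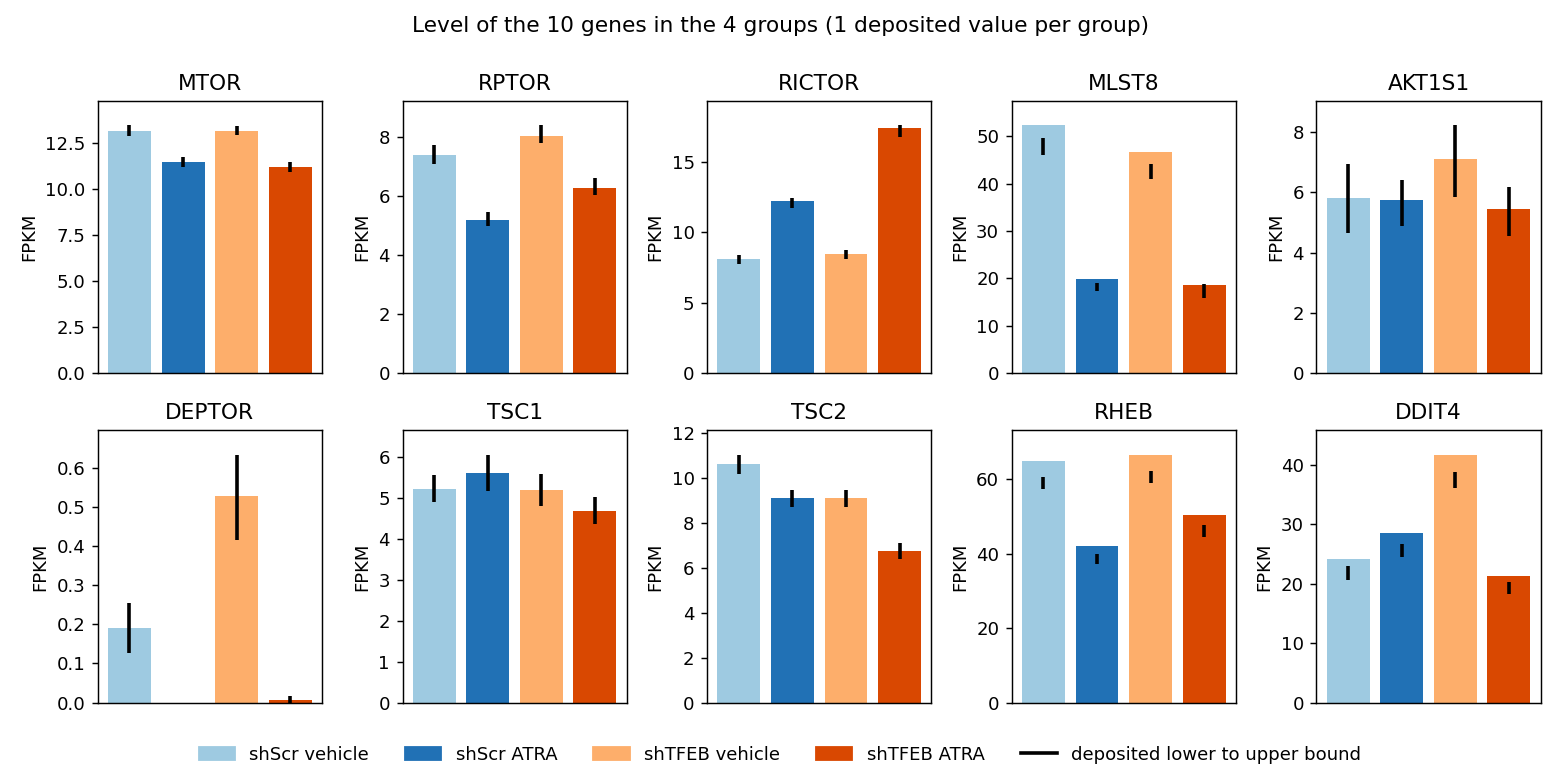
FPKM of the 10 genes in the 4 groups, 1 panel per gene with its own linear axis from 0. Bars are the deposited values, summed over models, and black lines run from the deposited lower to the upper bound. MLST8 and RHEB are lower in both ATRA groups, RICTOR is higher in both, and DDIT4 is highest in shTFEB vehicle at 41.6 FPKM.

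The kinase itself varied least among the 9 compared members, closely followed by TSC1. MTOR (hg19 chromosome 1, 11166588 to 11322608, 1 model) was at 13.2 FPKM in both vehicle groups, at 11.5 in shScr ATRA and at 11.2 in shTFEB ATRA. The ATRA groups were both a little lower, with log2 ratios of −0.18 and −0.22, and the highest group was 1.18-fold above the lowest. Under median-of-ratios rescaling, which sets the median of all genes to 0, these ratios were −0.02 and −0.08. Deposited bounds of ATRA and vehicle did not overlap in either line. From the model's length and the value of 1 fragment, roughly 6507 to 9859 fragments lay behind each MTOR value, a counting error of 1.01% to 1.24% that does not include the spread between cultures. The vehicle groups differed by 0.00 on the log2 scale (−0.03 and −0.02 under the 2 rescalings), with bounds that overlap.

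RPTOR encodes raptor, the scaffold that presents substrates to the kinase in mTORC1. Its level (chromosome 17, 78518625 to 78940173) was 7.39 FPKM under vehicle and 5.19 under ATRA for shScr, and 8.05 and 6.29 FPKM for shTFEB. The ATRA groups were lower in both lines, at log2 ratios of −0.44 and −0.31, short of either mark (−0.28 and −0.18 under median-of-ratios rescaling). The shTFEB groups were slightly above the shScr groups under both treatments, by log2 0.11 and 0.24. Of its 2 models NM_020761 held all of the signal and NM_001163034 was listed at 0 in each group.

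RICTOR, the scaffold of mTORC2, went the other way. It stood (chromosome 5, 38938022 to 39074501, 1 model) at 8.12 FPKM under vehicle and 12.2 under ATRA for shScr, and at 8.46 and 17.4 FPKM for shTFEB. Both ATRA groups were above both vehicle groups, and the deposited bounds of all 4 groups were apart except for those of the 2 vehicle groups. The log2 ratio was 0.53 in shScr and 0.96 in shTFEB cells, the latter just under the 2-fold mark. Without the added 1 FPKM the folds were 1.504 and 2.05. RICTOR was also the member that stood furthest above shScr in shTFEB cells under ATRA, at a log2 ratio of 0.48, where 89.5% of all compared genes had a lower ratio. The difference of the 2 responses was 0.42.

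The mRNAs of the 2 scaffolds, which bind the same kinase, were near each other per length under vehicle and apart under ATRA. RPTOR was 0.910 times as abundant as RICTOR in shScr vehicle and 0.952 times in shTFEB vehicle. Under ATRA it was 0.425 times as abundant in shScr and 0.362 times in shTFEB cells. Against MTOR, RICTOR went from 0.617 to 1.06 in shScr cells and from 0.642 to 1.55 in shTFEB cells, while RPTOR went from 0.561 to 0.453 and from 0.612 to 0.562. These are ratios of FPKM between mRNAs, each within 1 group, so they do not depend on how the groups are scaled, and they do not measure protein or complexes.

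MLST8, the WD-repeat subunit that both complexes share, had the widest range of the members on the log2(FPKM + 1) scale. It stood (chromosome 16, 2255178 to 2259418) at 52.3 FPKM under vehicle and 19.8 under ATRA for shScr, and at 46.6 and 18.7 FPKM for shTFEB. Both ATRA groups were far below both vehicle groups: the fall was 2.64-fold for shScr (log2 ratio −1.36) and 2.49-fold for shTFEB (−1.27). In shScr cells 8.27% of compared genes had a lower ratio, and in shTFEB cells 6.09%. Per length MLST8 was 3.97 and 3.54 times as abundant as MTOR under vehicle, and 1.73 and 1.67 times under ATRA. The lines differed little, by −0.16 under vehicle and −0.08 under ATRA on the log2 scale. Its last bases overlap those of BRICD5, which was listed at 0 in all groups.

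AKT1S1 encodes PRAS40, which binds raptor and restrains mTORC1 until AKT phosphorylates it. Its sum over 5 models (chromosome 19, 50372290 to 50381613) was 5.82 FPKM under vehicle and 5.74 under ATRA for shScr, and 7.12 and 5.43 FPKM for shTFEB. Summed bounds overlapped in each of the 4 comparisons of groups. The log2 ratio with ATRA was −0.02 in shScr cells, a sign that turned to 0.14 and 0.05 under the 2 rescalings, and −0.34 in shTFEB cells (−0.21 under median-of-ratios rescaling). What did differ was the assignment to models. Under vehicle 4 models were above 0 in both lines, whereas under ATRA NM_001098633 and NM_001278159 were listed at 0 in both. These had held 20.5% and 22.1% of the signal in shScr vehicle and 22.4% and 18.5% in shTFEB vehicle. The 4 models lie within the same stretch, so how fragments were split among them rests on the authors' software. Only NM_001278160, listed at 0 throughout, overlaps the neighbouring gene TBC1D17.

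DEPTOR, the other inhibitor, binds the kinase in both complexes. It was barely expressed: 0.191 FPKM under vehicle and 0 under ATRA for shScr, and 0.528 and 0.00581 FPKM for shTFEB. Taking the lowest value above 0 as 1 fragment and correcting for relative depth, these come to 36, 0, 117 and 1 fragments. Both vehicle groups were above both ATRA groups. In shScr cells DEPTOR was at least 12.6-fold lower under ATRA against a floor of 3 fragments for the group at 0. That floor leaves out the counting error of the 36 fragments, and the exact 95% lower limit, which covers it, was 9.71-fold. In shTFEB cells it was 90.8-fold lower, with an exact 95% counting interval of 15.99 to 3618. Between the vehicle groups it was 2.77-fold higher in the group labelled shTFEB (1.89 to 4.14). These intervals cover counting error alone.

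The TSC1 and TSC2 products, hamartin and tuberin, form the complex that inactivates RHEB. TSC1 (chromosome 9, 135766735 to 135820020) was at 5.21 FPKM under vehicle and 5.61 under ATRA for shScr, and at 5.19 and 4.68 FPKM for shTFEB. Its sum was nearly flat, with log2 ratios to vehicle of 0.09 and −0.12. Their signs rest on summing the models: the highest model alone gave −0.34 and 0.15. Its bounds, likewise widened by adding over models, overlapped in 3 of the 4 comparisons of groups. They were apart between the 2 ATRA groups, where shTFEB was lower by a log2 ratio of −0.22. The models were less even. NM_000368 held 81.8% of the sum under vehicle and 56.1% under ATRA for shScr, and 47.5% and 60.6% for shTFEB. NM_001162427 was listed at 0 in shScr vehicle and in shTFEB ATRA and not in the other groups. All 3 models share 1 locus, and with 1 value per group the shares cannot be set against a spread.

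TSC2 (chromosome 16, 2097990 to 2138713) was 10.6 FPKM under vehicle and 9.10 under ATRA for shScr, and 9.08 and 6.74 FPKM for shTFEB. It was lower under ATRA in both lines, by log2 ratios of −0.20 and −0.38, and lower in the shTFEB groups under both treatments, by −0.20 and −0.38. Under median-of-ratios rescaling the ATRA ratios were −0.04 and −0.25, so little of the shScr difference was left, and the hairpin ratios were −0.23 and −0.44. Each of these 4 comparisons had bounds that did not overlap, and none reached 1.5-fold. Against the other genes its hairpin ratios were low: 9.43% of compared genes had a lower ratio under vehicle and 8.06% under ATRA. All of the TSC2 signal was assigned to NM_001077183, 1 of 3 models. The gene PKD1 overlaps its last bases in the tables, and its 2 models went from 3.995 and 5.90 FPKM under vehicle to 1.68 and 2.25 under ATRA for shScr, and from 3.71 and 5.91 to 1.38 and 2.18 for shTFEB. The PKD1 models start at 2138711 and TSC2 ends at 2138713, so only a few bases are shared. The part of PKD1 in the TSC2 values was not tested. The ratio of TSC1 to TSC2 went from 0.492 to 0.617 with ATRA in shScr cells and from 0.571 to 0.695 in shTFEB cells.

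RHEB, the GTPase that switches the kinase on, was the most abundant member in every group. Its values (chromosome 7, 151163098 to 151217010, 1 model) were 64.9 FPKM under vehicle and 42.05 under ATRA for shScr, and 66.6 and 50.4 FPKM for shTFEB. Both ATRA groups lay below both vehicle groups. The log2 ratio was −0.62 in shScr cells, a 1.54-fold difference past the lower mark, and −0.39 in shTFEB cells, short of it. The shScr value also fell short of that mark under median-of-ratios rescaling (−0.44), upper-quartile rescaling (−0.53) and a pseudocount of 5 FPKM (−0.57), and median-of-ratios rescaling gave −0.25 in shTFEB cells. Under ATRA shTFEB cells held 1.20 times the shScr level. RHEB exceeded TSC2 per length 6.13-fold under vehicle and 4.62-fold under ATRA for shScr, and 7.34-fold and 7.49-fold for shTFEB.

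DDIT4 was the member whose response differed by more than 2-fold between the lines. Its values (chromosome 10, 74033677 to 74035797, 1 model) were 24.1 FPKM under vehicle and 28.5 under ATRA for shScr, and 41.6 and 21.3 FPKM for shTFEB. With ATRA it was 1.18-fold higher in shScr cells and 1.95-fold lower in shTFEB cells, log2 ratios of 0.23 and −0.93 that both stayed under the 2-fold mark (0.40 and −0.79 under median-of-ratios rescaling). The difference of the responses was −1.16. Of the members, 1 was past the 2-fold mark in that comparison in the lower direction, where 1.86% of all genes were, and 0 in the higher direction (2.42%). At 1.5-fold the counts were again 1 lower (4.63%) and 0 higher (5.86%). Most of the difference lay between the vehicle groups: the one labelled shTFEB, where TFEB mRNA was not lower, was 1.73-fold above shScr (log2 ratio 0.76), and 98.4% of compared genes had a lower ratio there. Under ATRA the order was reversed, with shTFEB cells 1.34-fold lower (log2 ratio −0.40). Roughly 2495 to 6281 fragments lay behind each value, a counting error of 1.26% to 2.00% that does not include the spread between cultures. Each DDIT4 value lies above its own deposited upper bound (41.6 against 38.8 FPKM in shTFEB vehicle). MTOR values lie within theirs, so the DDIT4 count is the less sure estimate and its error may be larger.

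**Figure D2:**
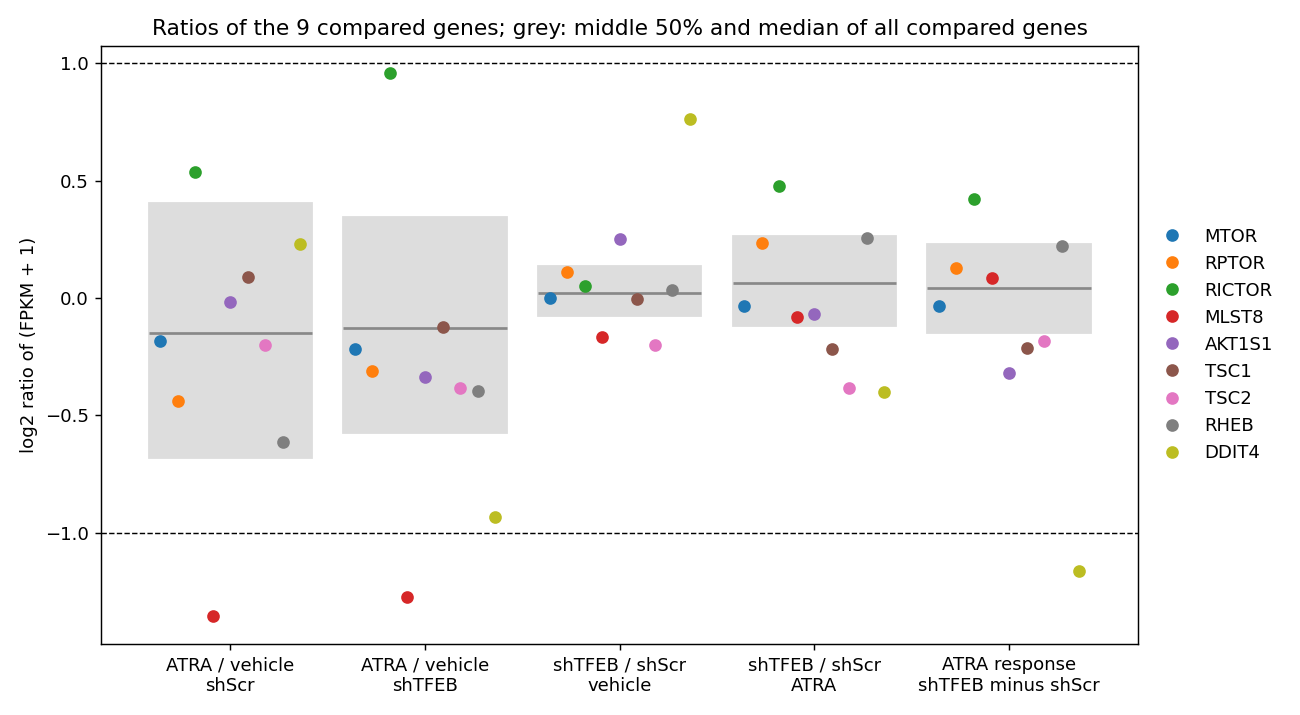
Log2 ratios of (FPKM + 1) for the 9 compared genes in 4 comparisons of groups and in the difference of the ATRA responses; grey boxes hold the middle 50% of 11052 genes with their median as a line, and dashed lines mark 2-fold. MLST8 is past the mark under ATRA in both lines (−1.36 and −1.27), and DDIT4 in the difference of responses (−1.16).

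Between the hairpins as such, 0 of 9 members passed the 2-fold mark under vehicle, where 1.06% of genes were higher and 0.787% lower, and 0 of 9 under ATRA (2.67% and 1.58%). The medians of the members were 0.04 and −0.07, beside 0.02 and 0.06 for all genes. At the 1.5-fold mark DDIT4 was the 1 member higher under vehicle (2.52% of genes) and 0 were lower (1.76%), and under ATRA 0 were higher (7.26%) and 0 lower (4.02%). Bounds did not overlap for 2 higher and 2 lower members under vehicle (21.8% and 14.9% of genes), and for 3 and 3 under ATRA (35.0% and 19.7%). The hairpin comparisons and the ATRA comparisons share groups, so they are not independent readings of a gene.

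The order of levels was also compared. RHEB came first in all 4 groups, and DEPTOR last. MLST8 followed RHEB in both vehicle groups with DDIT4 after it, and the 2 changed places under ATRA. RICTOR was at place 6 under vehicle, below MTOR and TSC2, and at place 4 under ATRA, above both. AKT1S1, TSC1 and RPTOR held adjoining places between 5.19 and 5.74 FPKM in shScr ATRA, and their summed deposited bounds overlapped there. The values are per length, so that genes can be set side by side within a group, with a limit. Of the member values, 11 exceed their own deposited upper bound, all of DDIT4, RHEB or MLST8. How this bears on the places of these genes, or on their ratios to other members, was not tested.

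**Figure D3:**
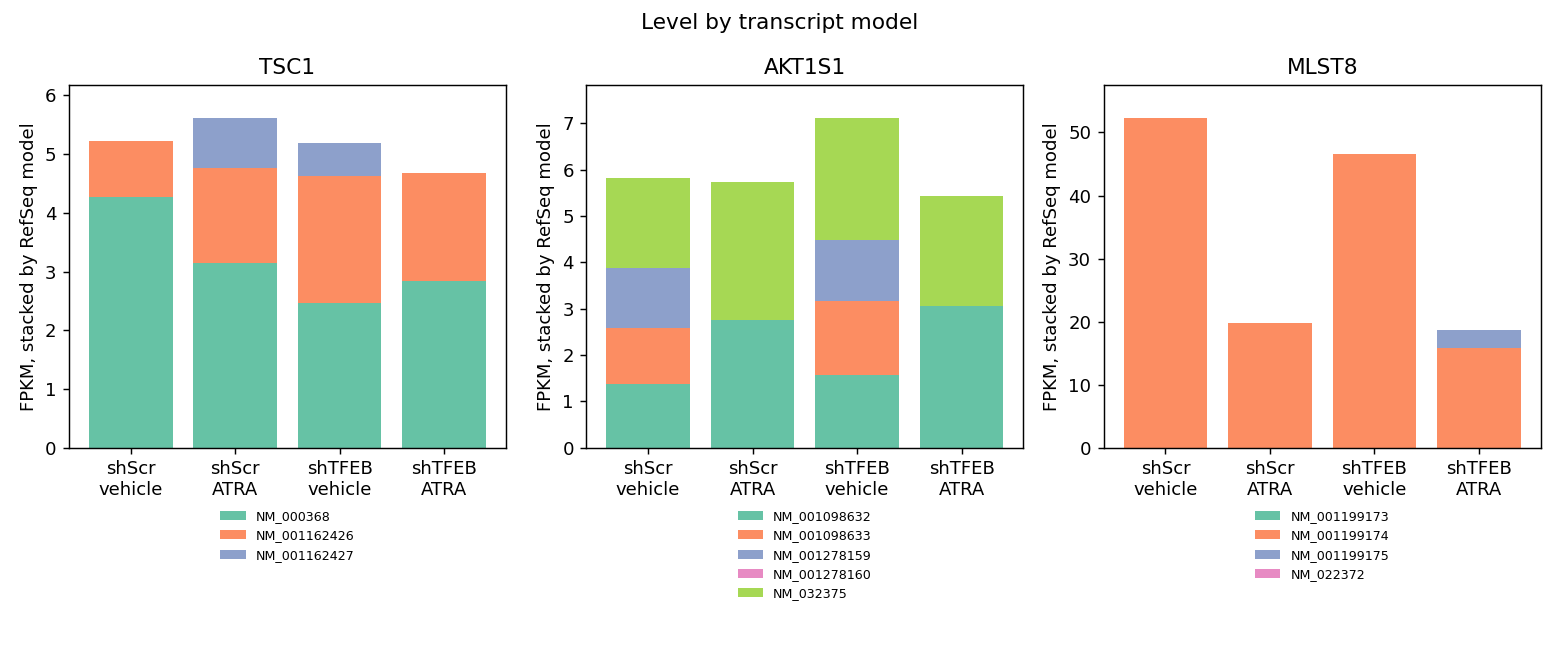
FPKM of TSC1, AKT1S1 and MLST8 stacked by RefSeq model in the 4 groups, linear axes from 0. The totals of TSC1 and AKT1S1 stay between 4.68 and 5.61 and between 5.43 and 7.12 FPKM while the models change, and MLST8 is 1 model except for 15.5% of its signal in shTFEB ATRA.

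Genes with a like course over the 4 groups were sought for the 3 members of widest range, by the Euclidean distance of centred log2(FPKM + 1) among 7783 genes with a mean of at least 5 FPKM. With only 4 points many genes lie near any profile. Closest to MLST8 were CLEC2D (distance 0.0459), CEP83 (0.0521) and CHCHD6 (0.0746), with CLEC2D at 23.5 and 8.77 FPKM in the shScr groups and 21.4 and 8.45 in the shTFEB groups. Closest to RICTOR were the cytidine deaminase gene APOBEC3C (0.0777), PARP4 (0.0869) and the nucleoside transporter gene SLC29A1 (0.0919). APOBEC3C went from 21.9 to 30.9 FPKM for shScr and from 23.6 to 44.6 for shTFEB. DDIT4 had no neighbour as near, the first being ACTA2 (0.162), NFKBIB (0.239) and DBN1 (0.308).

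The wider pathway was read from 7 lists of 92 genes, of which 85 were compared. With ATRA in shScr cells 7 of 85 rose and 7 fell, and in shTFEB cells 6 rose and 4 fell, beside the shares of all genes given above. Their medians were 0.04 and 0.04, beside −0.15 and −0.13 over all genes. Between the hairpins 0 of 85 passed the mark under vehicle and 1 under ATRA, which was SGK1.

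The input from receptors held 4 of the genes that rose. Of 18 compared genes of the PI3K, AKT, ERK and RSK list 4 rose and 1 fell in each line. PIK3CG and PIK3CD, the catalytic subunits of leukocytes, rose from 10.6 to 50.8 and from 22.4 to 66.3 FPKM for shScr, and from 7.40 to 37.6 and from 25.2 to 66.7 FPKM for shTFEB. PIK3R5, the adaptor of PIK3CG, had log2 ratios of 2.36 and 1.79. IRS2, the adaptor of insulin and cytokine receptors, fell, at −1.40 and −1.21. Of 12 compared genes of AMPK, LKB1, GSK3 and hypoxia input, HIF1A rose in shScr cells (1.19) and stood at 0.95 in shTFEB cells, and none fell.

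Nutrient sensing genes moved in both directions. Among 12 genes of GATOR1, GATOR2 and KICSTOR, which relay amino acid levels to the Rag GTPases, none rose. SEH1L, also a nucleoporin, fell in both lines (−1.47 and −1.13) and KICS2 fell in shScr cells (−1.09; −0.64 in shTFEB cells). The list's medians were −0.42 and −0.30. Rag GTPase, Ragulator and folliculin genes had medians of 0.51 and 0.56 with 0 of 11 compared genes past the mark. Of these FLCN was the furthest in shScr cells, at 0.94. FNIP2, also in the list, was not compared because its mean was under 1 FPKM. Its log2 ratios were 1.29 and 1.13, from low vehicle values of 0.0875 FPKM for shScr and 0.206 for shTFEB. Of 7 amino acid sensors only the S-adenosylmethionine sensor SAMTOR rose, in shScr cells (1.07; 0.73 in shTFEB cells).

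Downstream, 0 of 16 compared substrates and translation targets rose. EIF4EBP1, the translation repressor that mTORC1 inactivates, fell from 58.8 to 19.0 FPKM for shScr (−1.58) and from 85.1 to 28.4 for shTFEB (−1.55). The cap-binding factor EIF4E, which it holds, fell in shScr cells (−1.06) and stood at −0.91 in shTFEB cells. The medians of the list were −0.28 and −0.47.

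In the list of mTORC2 and kinase assembly partners, not all of them particular to mTORC2, 9 genes were compared. SGK1, a kinase that mTORC2 phosphorylates, rose from 0.816 to 17.5 FPKM for shScr and from 0.755 to 7.47 for shTFEB. Of the compared list genes it was the 1 past the 2-fold mark between the hairpins under ATRA, lower in shTFEB cells (log2 ratio −1.13). SGK3 reached a log2 ratio of 1.00 in shTFEB cells, 0.63 in shScr cells. TELO2, a cofactor that assembles the kinase, fell in both lines, at −1.25 and −1.07. RHEBL1, a relative of RHEB, fell in shScr cells (−1.26) and stood at −0.82 in shTFEB cells.

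**Figure D4:**
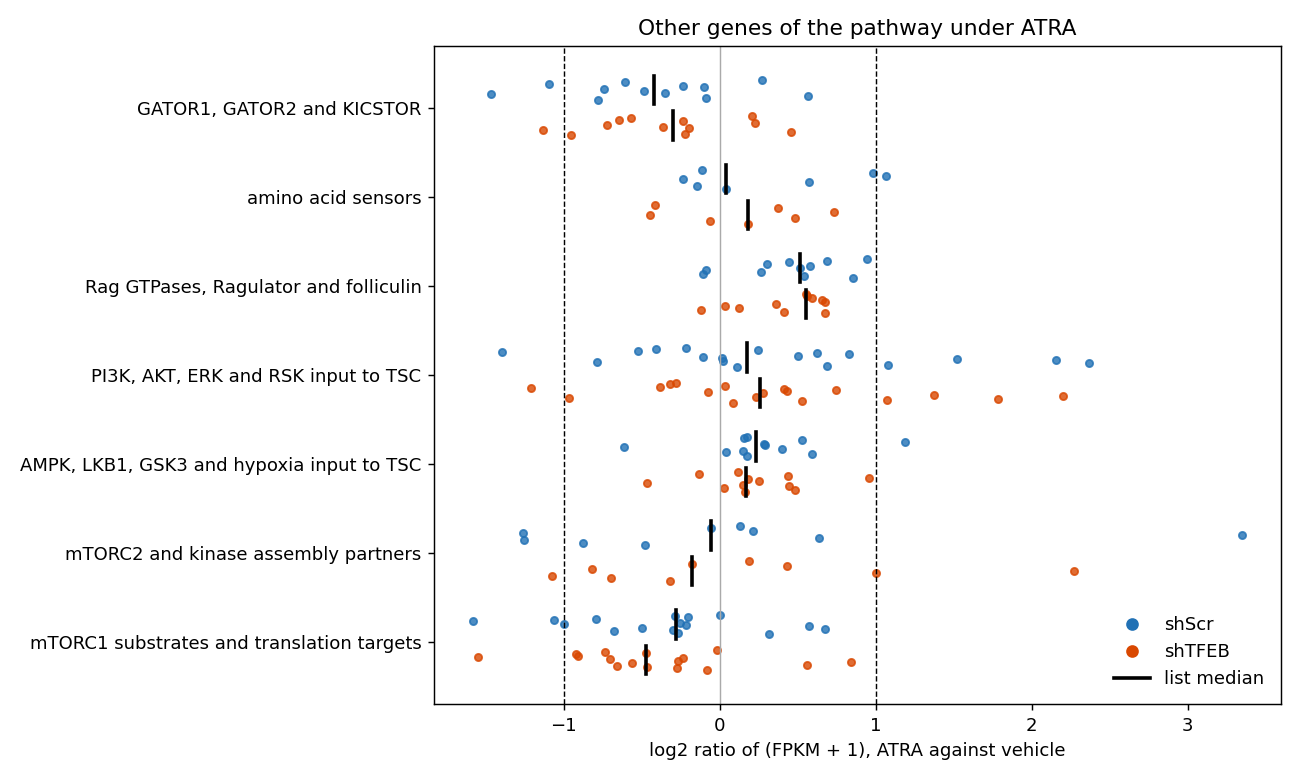
Log2 ratios of (FPKM + 1), ATRA against vehicle, of 85 further pathway genes in 7 lists; blue points are shScr and orange points shTFEB cells, black ticks are list medians and dashed lines mark 2-fold. Rag, Ragulator and folliculin genes lie mostly to the right (medians 0.51 and 0.56), and substrates mostly to the left (−0.28 and −0.47).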

How the data were processed

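The authors deposited 1 FPKM per model and group. The submitters' processing notes name TopHat, Cufflinks, Cuffdiff and the build hg19. Versions, the strand setting and how the 2 samples of a group were combined are not given in the sources used here. Each of the 4 tables lists 65986 models. Of 41159 RefSeq accessions, 39841 (96.8%) were matched to symbols of a RefSeq table of GRCh38.p14, used for names. The shScr ATRA titles also say vehicle, and the treatment field was followed.

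For each symbol the FPKM values and deposited bounds of its models were added up (Python 3.11.15, pandas 2.3.3, NumPy 2.4.6). How the bounds were made is not given either, and 11 of 40 member values, of DDIT4, RHEB and MLST8, exceed their own upper bound. Ratios were log2((FPKM + 1)/(FPKM + 1)) over genes with a mean of at least 1 FPKM. Relative depth is the ratio of the deposited upper bounds of models listed at 0 in both groups, 93.1% to 93.7% of which lie within 1% of the median. Fragments behind MTOR and DDIT4 rest on GENCODE transcript lengths. Named genes were the members, TFEB, the nearest profiles and at most 4 compared genes per list with the largest change past the mark. Where none passed, the 1 with the largest change was named. FNIP2 was named in addition. The members, lists and tests were chosen with earlier results of these data known. The alternatives tried were a pseudocount of 0.1 or 5 FPKM, all genes unfiltered, a mean of at least 5 FPKM, 2 rescalings, the highest model, models with status OK, a 1.5-fold mark, bounds that do not overlap and, added after the data were seen, midpoints of the bounds. Some genes of the lists are counted but not reported here by name.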

Additional observations from a re-analysis of the deposited data

Results flagged for a closer look

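DDIT4 was higher with ATRA in shScr cells and lower in shTFEB cells, a difference of responses of −1.16 on the log2 scale. It stands here because the 2 lines moved in opposite directions; with 1 value per group the difference was not tested.

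TSC1 also moved in opposite directions, up in shScr and down in shTFEB cells, with a difference of −0.21 that was likewise not tested. With the highest model in place of the summed level both directions turn (−0.34 and 0.15) and the difference is 0.49. Both of its ratios to vehicle (0.09 and −0.12) had summed deposited bounds that overlap.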

How the results depend on the processing

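No paired analysis was possible because the tables hold 1 value per group with no replicate number; for the same reason no replicate could be left out. The 1 member past the 2-fold mark with ATRA in shScr cells stayed 1 under all alternatives but 2: 2 members passed a 1.5-fold mark and 7 had bounds that do not overlap. In shTFEB cells 1 became 2 with a pseudocount of 0.1 FPKM and with median-of-ratios rescaling, by RICTOR (1.03 and 1.09), 3 at the 1.5-fold mark and 7 by bounds. Between the vehicle groups 0 became 1 at the 1.5-fold mark and 4 by bounds, and between the ATRA groups 0 became 6 by bounds. The 1 member in the difference of responses stayed 1 under each alternative run; bounds were not applied to it. The 1.5-fold mark and the bounds are looser by construction. RICTOR was 2.05-fold higher in shTFEB cells with no FPKM added, so a small enough pseudocount places it past the mark. Median-of-ratios rescaling raised its ratio together with those of the other genes. Of 407 recomputed ratios of single members 377 kept their side of the mark and, if under it, moved by no more than a tolerance. That tolerance was the distance from the middle to the end of the range their bounds give. Another 28 moved further and 2 newly passed the mark. Part of the 377 was fixed in advance. No filter, a mean of at least 5 FPKM and models with status OK left each member's ratios unchanged. The highest model could not change a gene with 1 model. Median-of-ratios rescaling shifted the median of all genes under ATRA from −0.15 and −0.13 to 0. Using the single highest model of a gene turned the AKT1S1 ratios under ATRA to 0.43 and 0.16 and those of TSC1 to −0.34 and 0.15, the TSC1 difference of responses to 0.49, the TSC1 ratio between vehicle groups from −0.01 to −0.60, past the 1.5-fold mark, and the MLST8 ratio between ATRA groups from −0.08 to −0.31. Depth limits DEPTOR, with at most 117 fragments in a group.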
